A study of Arabidopsis thaliana with 53 samples.

Results

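Plants of the virescent Arabidopsis line that do not show the pale leaves of that line were compared here with control plants descended from seed germinated on DMSO. The comparison covered 13 of the 53 leaf RNA libraries in the study, 4 from the virescent line relatives and 9 from DMSO plants, each library from 1 plant. The 4 relatives have the library labels 13B_18_20, 13B_18_21, 13B_18_24 and 13B_18_47, so that all are M3 siblings of 1 M2 family of the M1 line 13B, whose M1 plant grew for 2 weeks on medium with 160 µM etoposide, an inhibitor of topoisomerase II that leaves double-stranded breaks in DNA. DMSO replicates 1 to 3 come from line C13, 4 to 6 from line C23 and 7 to 9 from line C4, all labelled M2, and their ancestors grew on the solvent alone. All plants descend from wild-type Col-0 seed and were grown under the same long-day protocol.

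Etoposide treatment, M2 family and M1 line cannot be told apart in this comparison, because every relative shares all of them and no DMSO plant shares any. Generation is confounded as well if the labels are right, but the study's methods place the DMSO plants in the M3 generation. P-values measure the spread among these plants, and siblings of a single family are not independent treated lines. In whole leaves, fewer cells of a type and less RNA per cell cannot be told apart either. The hour at which each plant was harvested is not given in the sources used here.

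Clock genes and their targets are expressed in daily waves. In the morning CCA1 and LHY, a pair of related MYB proteins, repress genes that peak towards evening by binding a short promoter motif named the evening element. During the day PRR9, PRR7 and PRR5 repress CCA1 and LHY, and at dusk the evening complex of LUX, ELF3 and ELF4 represses PRR7, PRR9, GI and the growth-promoting genes PIF4 and PIF5. Leaf growth itself rests on loosening and building of the cell wall, by expansins, cellulose synthases and arabinogalactan proteins, and on DNA replication in young dividing cells.

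Libraries held 37244014 to 61138861 counts in the relatives and 40099331 to 116654254 in the DMSO plants, the highest being DMSO replicate 5. No pair of libraries was identical among the 78 pairs. The first principal component held 33.5% of the variance and ran through the DMSO plants, with line C13 at -84.78 to -59.43 and line C23 at 48.82 to 73.67. The second, with 15.7%, placed all 4 relatives at 28.42 to 36.81. DMSO replicate 5 alone lay at -95.83 on it, and the other DMSO plants at -35 to 20.5. Relative replicate 4 stood apart on the third component at 67.03, where the other relatives lay at 3.102 to 17.45, and DMSO replicate 2 came nearest to it at 48.49. The median correlation was 0.966 between relatives, 0.935 between DMSO plants and 0.945 between a relative and a DMSO plant. The summed level of 6 mature leaf markers was 20177 to 31802 CPM (counts scaled to a common library size) in the relatives and 19866 to 42236 in the DMSO plants. All 6 were lower in the relatives (median log2 difference -0.33) and none was called. The 4 root markers and the 4 seed markers summed to at most 0.17 CPM in any of the 13 plants. The 12 floral organ markers summed to 14.4 to 18.25 CPM in relatives 1 to 3, above every DMSO plant (1.803 to 10.5), and to 5.71 in relative replicate 4. The 4 that were tested were all higher in the relatives, their median log2 difference being 1.04 (1.21 without replicate 4), 2 at an unadjusted p below 0.05 and none called. The part of these floral markers in the results was not tested.

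Of 19388 genes tested, 71 were called, that is 0.366%, with a log2 fold change beyond 1 in either direction and an adjusted p under 0.01. In the relatives 39 genes (0.201%) were higher and 32 (0.165%) were lower. For 66 of the 71, the values of the 4 relatives and the 9 DMSO plants did not overlap, which held for 653 of all genes tested (3.37%). The median of all genes lay at a log2 fold change of -0.022. Fold changes of the higher genes ran from 1.08 to 3.99 with a median of 1.35, and those of the lower genes from -2.58 to -1.01 with a median of -1.65. Before adjustment, 3890 genes had a p under 0.05.

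The calls rest on few plants and on the virescent plants that share the estimate of spread. With only the 13 plants compared in the fit, 32 of 19177 genes were called, 31 of them among the 71. Without relative replicate 4, 38 of 19359 genes were called (0.196%), 26 higher and 12 lower, and 31 of these were among the 71. Leaving out relative replicate 1 left 21 calls, replicate 2 left 25 and replicate 3 left 44. All 71 genes kept their direction without replicate 4, and 66 kept an absolute log2 fold change above 1. When the M1 line entered the model as a random block, with the 13 plants from 4 lines, limma called 0 genes, against 1000 genes at an unadjusted p below 0.05. In that model PIF4 had an adjusted p of 0.0116 and PRR7 of 0.0921.

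The 71 genes moved in the same direction against each of the 3 DMSO lines taken alone, as the ratio of mean CPM. The ratio was above 1 on the log2 scale for 58 genes against C13, for 65 against C23 and for 58 against C4, and for 44 genes against all 3 lines. These comparisons share the 4 relatives, and the calls had been made on the 3 lines together.

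PIF4, PIF5, PRR7, LUX and GRP7, all with daily rhythms, were among the higher genes. PIF4, a bHLH factor that drives elongation of stems and petioles, stood at 60.3, 64.1, 72.4 and 63.7 CPM in relatives 1 to 4. Its 9 DMSO values were 16.2, 13.7, 13.9, 18.5, 16.7, 16.8, 17.2, 26.1 and 12.4. Every relative was more than 2 times as high as the highest DMSO plant, and PIF4 rose by 1.95 ± 0.20 (log2, SE) with an adjusted p of 6.15e-05. Its relative PIF5 (PIL6 in RefSeq) rose by 1.23 ± 0.24, at 43.6 to 57.3 CPM in the relatives and 14.6 to 32.4 in the DMSO plants, and had lost its call without relative replicate 4.

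PRR7, the day repressor of CCA1 and LHY, was found at 47.6, 52.9, 52.5 and 54.1 CPM in the relatives. In the DMSO plants it ran from 10.7 in line C13 to 26.1 in line C4, with a median of 15.9. The gene rose by 1.62 ± 0.21 (adjusted p = 0.000673). LUX (PCL1 in RefSeq), the DNA-binding member of the evening complex, was at 105, 106, 93.8 and 102 CPM in the relatives and between 24.2 and 56.2 in the DMSO plants. It rose by 1.28 ± 0.17 (adjusted p = 0.00076). GRP7, an RNA-binding protein whose abundant message is an output of the clock, stood at 5827, 5477, 5723 and 5625 CPM. The DMSO plants held 1431 to 2972 CPM, with a median of 2495, and GRP7 rose by 1.28 ± 0.15 (adjusted p = 0.000313). PIF4, PRR7, LUX and GRP7 were called in each of the 13 analyses that left out 1 of the 13 plants.

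**Figure D1:**
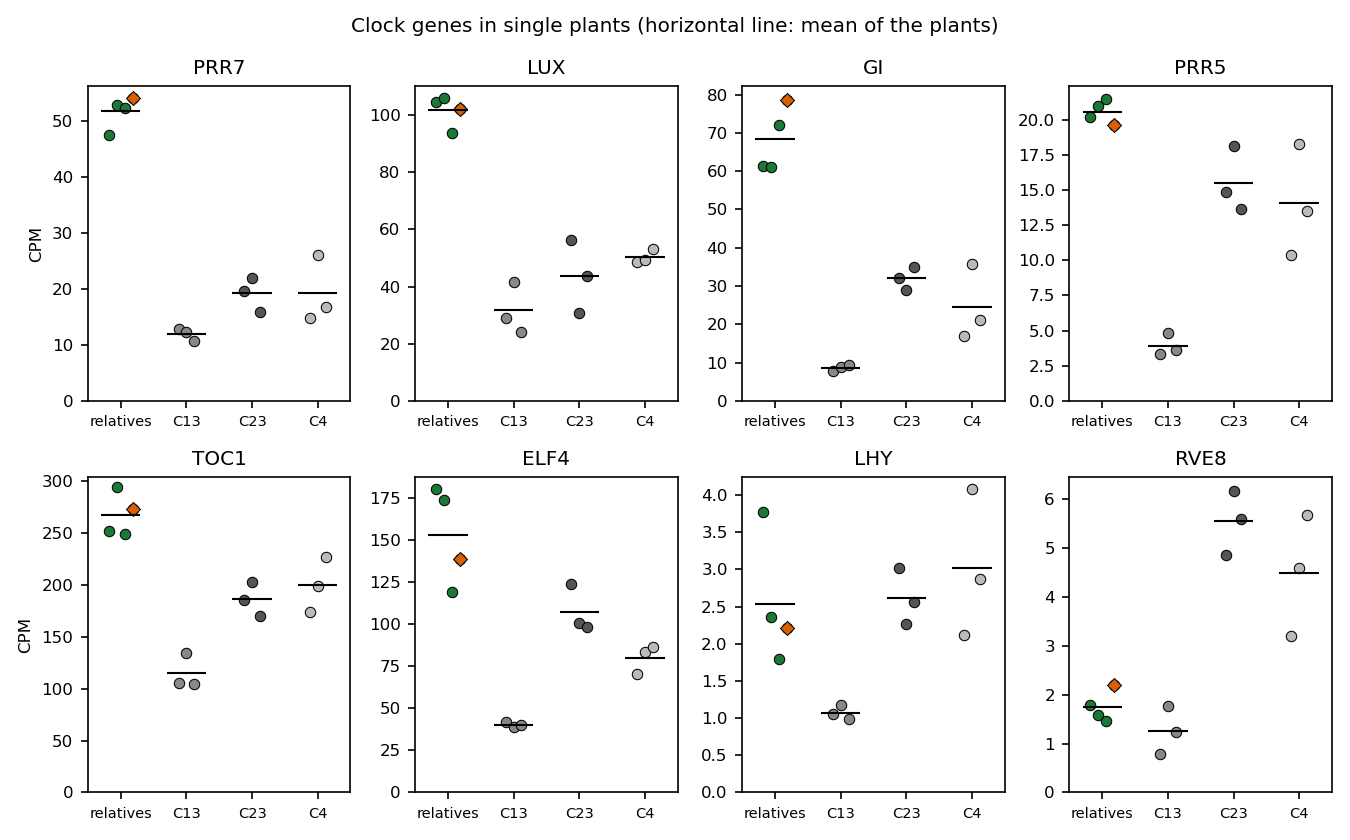
Level of 8 clock genes in CPM (vertical axis, starting at 0) in single plants, with the relatives in green and relative replicate 4 as an orange diamond, and the DMSO plants in grey by M1 line. The horizontal line is the mean of the plants. PRR7, LUX and GI were higher in all 4 relatives than in any DMSO plant, while RVE8 was as low in the relatives as in line C13.

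The list of circadian clock genes held 20 members, all tested. Of these 18 were higher in the relatives, 2 were called (PRR7 and LUX) and the median log2 fold change was 0.58, against -0.022 over all genes tested. It was 0.57 without relative replicate 4. The values of 7 members did not overlap between the groups, all of them higher in the relatives, where 3.37% of all genes tested did not overlap and 0.366% were called. GI, a large nuclear and cytosolic protein of the photoperiod pathway, was at 61.3, 61.2, 71.9 and 78.7 CPM in the relatives and at 7.87 to 35.9 in the DMSO plants, with a log2 difference of 1.65 ± 0.35 that missed the threshold (adjusted p = 0.0134). TOC1 was at 249 to 294 CPM against 105 to 226 (adjusted p = 0.0284), and PRR3 at 87 to 102 against 36 to 79.6 (adjusted p = 0.029). PRR5 and LNK1 were also without overlap, at adjusted p-values of 0.196 and 0.114. The morning genes were low in both groups. CCA1 lay at 2.78 to 6.45 CPM in the relatives and 0.72 to 5.90 in the DMSO plants, and LHY at 1.796 to 3.77 and 0.98 to 4.08. RVE8, an activator of evening genes, was at 1.45 to 2.19 CPM in the relatives and at 0.79 to 6.17 in the DMSO plants.

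The DMSO lines differed from each other in the same genes. The summed level of the list was 1053 to 1136 CPM in the relatives, 415 to 462 in line C13 and 633 to 838 in lines C23 and C4. Measured against C13 alone the median log2 fold change of the list was 1.57, against C23 alone it was 0.31 and against C4 alone 0.36. In the median clock gene, the highest of the 4 relatives was 1.22 times the lowest, and the highest of the 9 DMSO plants 3.2 times the lowest. These ratios are not alike, because the relatives are siblings of 1 family and the DMSO plants come from 3 lines. Within a single DMSO line the summed level also varied less, at 758.5 to 837.6 CPM in C23 and 633.3 to 796.5 in C4. PIF4 differed little by line: its fold change was 2.15 against C13, 1.91 against C23 and 1.81 against C4. For PRR7 the values were 2.11, 1.43 and 1.42, and for LUX 1.67, 1.23 and 1.01.

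Promoters of the called genes were read for the letters of 3 motifs, because the first of these is the element through which CCA1 and LHY act. The 500 bases before each RefSeq gene start (TAIR10.1) were searched on both strands for the evening element AAAATATCT, the CCA1-binding site AAAAATCT and the G-box CACGTG, none of which contains another. The evening element was present in 6 of the 39 genes called higher (15.4%), in 0 of the 32 called lower and in 878 of the 19298 tested genes with a promoter (4.55%). The G-box was present in 9 of the 39 (23.1%), in 2 of the 32 (6.25%) and in 10.4% of all, and the CCA1-binding site in 7.69%, 15.6% and 12.5%. Among the 20 clock genes, 5 held the evening element. A match describes the letters and is no evidence of binding. The 5 genes below were called higher and have the element within 100 bases of the start, and GRP7 has it 3 times. Each stretch is shown 5′ to 3′ on the strand of the gene, with the element or its reverse complement in capitals.
LUX, chr3:17182969-17183017, plus strand: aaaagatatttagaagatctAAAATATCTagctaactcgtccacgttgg
GRP7, chr2:9266560-9266608, minus strand: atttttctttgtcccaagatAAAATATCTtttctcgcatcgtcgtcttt
STP14, chr1:29012144-29012192, minus strand: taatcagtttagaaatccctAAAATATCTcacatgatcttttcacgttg
MEE14, chr2:6922199-6922247, minus strand: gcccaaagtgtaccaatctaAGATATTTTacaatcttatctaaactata
AT2G15960, chr2:6947033-6947081, plus strand: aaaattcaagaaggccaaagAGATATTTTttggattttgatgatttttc

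PRR7 and PIF4 carry no evening element in this window. STP14, a sugar transporter, was at 27.2 to 29.7 CPM in the relatives and 8.73 to 16.1 in the DMSO plants, and rose by 1.21 ± 0.15. MEE14 stood at 412 to 633 CPM against 152 to 277 and rose by 1.197 ± 0.17. AT2G15960, annotated as a stress-induced protein, had 356, 354, 240 and 199 CPM in the relatives and at most 158 in a DMSO plant. It rose by 1.22 ± 0.21.

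AT3G55240, a plant protein of unknown function, had the largest fold change among the genes that kept their call without replicate 4. It was at 7.13, 6.13, 5.11 and 3.85 CPM in the relatives and at 0.06 to 1.46 in the DMSO plants, and rose by 3.10 ± 0.45 (adjusted p = 0.00108). HAT1, a homeodomain-leucine zipper repressor of the family that responds to shade, was at 103, 106 and 90.5 CPM in relatives 1 to 3 and at 36.4 in replicate 4. Its DMSO values ran from 6.24 to 36.3 CPM, the 3 highest being those of line C4. HAT1 rose by 2.302 ± 0.43 (adjusted p = 0.0056), but against line C4 alone the value was 1.46 with an adjusted p of 0.082. It was called in 7 of the 13 analyses that left out 1 plant, at log2 fold changes of 2.17 to 2.55 over the 13.

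SHY2, an Aux/IAA repressor of auxin response, behaved like HAT1 across the relatives. It was at 60.5, 77.3, 64.6 and 25.3 CPM, the last of these within the DMSO range of 12 to 31, and rose by 1.54 ± 0.26. BBX27, a B-box zinc finger protein, was at 20.16 to 26.7 CPM against 5.21 to 14.6 and rose by 1.38 ± 0.23.

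DYL1 and AT2G33830, both annotated as dormancy associated, were each named for the size of their change, and no list of their family was made. DYL1 (also called DRM1) was at 403, 451, 431 and 345 CPM in the relatives and 96.1 to 199 in the DMSO plants, and rose by 1.51 ± 0.22. AT2G33830, annotated in the same family, was at 1305, 1148, 1208 and 1058 CPM against 224 to 458, and rose by 1.75 ± 0.23 (adjusted p = 0.000673). No DMSO plant reached the lowest relative in either gene, which the choice of these genes required.

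The next genes belong to no list. AT1G08890 and DRL1 were named by the rule on size, and BXL1, BGAL1, SIP1 and SIP2 were chosen for mention after their values were seen. BXL1, a beta-xylosidase of the cell wall, was at 355, 247, 252 and 340 CPM in the relatives and 18.5 to 94.2 in the DMSO plants. It rose by 2.51 ± 0.42. BGAL1, a beta-galactosidase, was at 756 to 852 CPM against 119 to 482 and rose by 1.66 ± 0.29. SIP2, an alpha-galactosidase that breaks down raffinose, rose by 1.34 ± 0.27 with 1 relative inside the DMSO range, while the raffinose synthase gene SIP1 fell by 1.497 on the log2 scale. BXL1, BGAL1, SIP1 and SIP2 missed the threshold without relative replicate 4, at log2 fold changes of 2.44, 1.69, -1.55 and 1.12. AT1G08890, a sugar transporter-like protein of the major facilitator superfamily, was at 37 to 38.4 CPM in all 4 relatives and at 11.3 to 21.8 in the DMSO plants. Its rise of 1.23 ± 0.17 was called with and without that plant. DRL1, a reductase known from synthesis of the pollen wall, was at 6.09 to 7.84 CPM against 1.54 to 4.72, and rose by 1.39 ± 0.23.

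**Figure D2:**
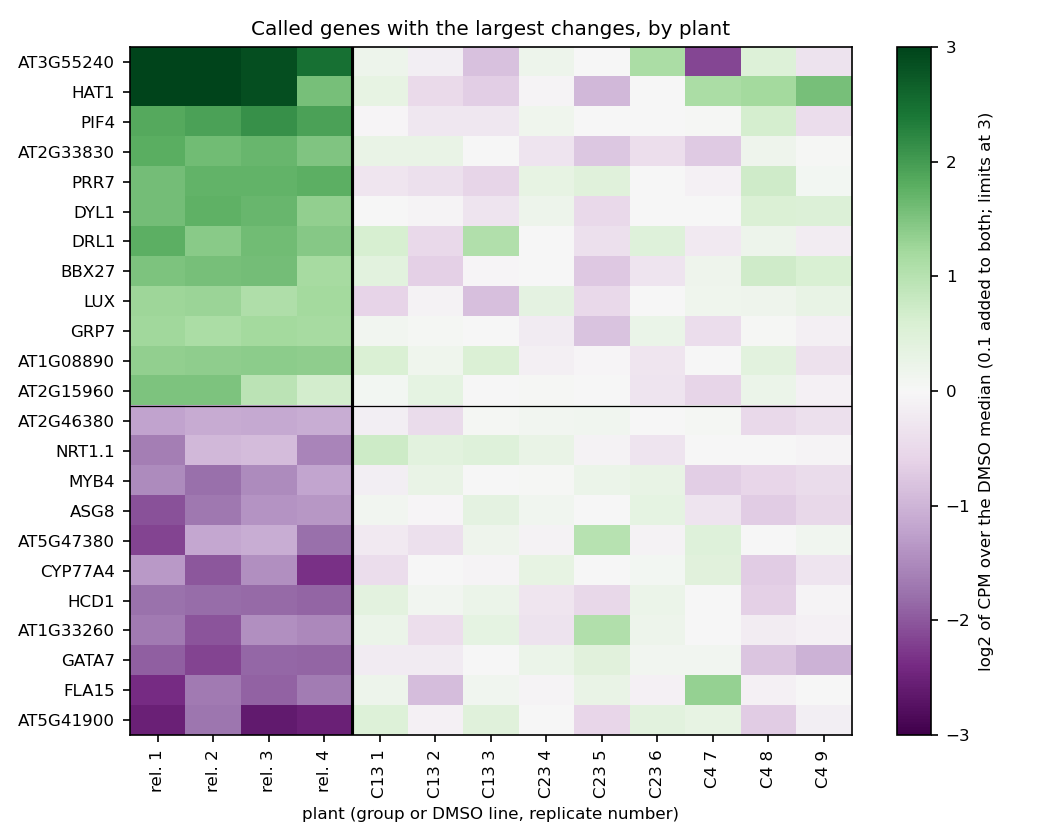
Rows are the 12 higher and 11 lower genes with the largest fold changes that were called with and without relative replicate 4 and did not overlap, and columns are the 13 plants. Colour gives the log2 of CPM over the DMSO median, with green higher, purple lower and values beyond 3 drawn as 3. The 4 relatives on the left differ from all 9 DMSO plants in every row, and HAT1 and AT2G15960 are less raised in replicate 4 than in the other relatives.

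Light-harvesting genes were mostly higher in the relatives. Of 43 nuclear genes of the photosystems and antenna, 37 were higher, where 46.7% of all genes tested were higher. Their median was 0.38 on the log2 scale (0.44 without replicate 4). In relatives 1 to 4 taken singly, the median ratio to the DMSO plants was 0.44, 0.75, 0.39 and 0.15. Only 1 of the 43 was called, against 0.366% of all genes tested. LHCB1.5 (LHB1B2 in RefSeq), an antenna protein of photosystem II, was at 6429, 8633, 6065 and 5651 CPM in the relatives and between 1590 and 4384 in the DMSO plants. It rose by 1.31 ± 0.25 (adjusted p = 0.00696) and lost its call in 10 of the 13 analyses without 1 plant. Near-identical LHCB1 copies share reads, so the value of this single copy is uncertain. LHCB2.2 and LHCA4 had log2 differences of 1.399 and 1.24 at adjusted p-values of 0.0135 and 0.0163. Among the 6 lower members, LHCB4.3 had a log2 difference of -1.02 (adjusted p = 0.101), at 18.4 to 29.7 CPM against 18.1 to 79.7. The median of the list was 0.07 against line C13 alone, 0.73 against C23 and 0.52 against C4. Genes of chlorophyll synthesis and greening had a median of 0.03, with 9 of 16 higher and none called, and GUN4, which activates magnesium chelatase, was at 32.4 to 53.3 CPM against 29.2 to 98.3 (adjusted p = 0.218).

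Of the lower genes described next, FLA15 was named by the rule on size, and FLA16, GH9C2, CSLA9 and CESA5 were picked after their values were seen. FLA15, a fasciclin-like arabinogalactan protein, was at 1.74, 2.89, 2.45 and 2.94 CPM in the relatives and at 5.13 to 24 in the DMSO plants. It fell by 2.12 on the log2 scale (SE 0.34, adjusted p = 0.00293). Its close relative FLA16 was at 6.43 to 12.3 CPM against 21.9 to 73.5 and fell by 2.06. GH9C2, an endoglucanase of the cellulose-binding class, was at 2.70 to 9.71 CPM against 15.8 to 57.3 and fell by 2.23. CSLA9 (ATCSLA09 in RefSeq), a glucomannan synthase, was at 2.88 to 5.94 CPM against 9.38 to 57.1 and fell by 2.36. CESA5, a catalytic subunit of cellulose synthase, was at 78.2 to 102 CPM against 142 to 272 and fell by 1.01. In all of these the groups did not overlap, and DMSO replicate 7 of line C4 was the highest plant. FLA16, GH9C2, CSLA9 and CESA5 were not called without relative replicate 4, at log2 fold changes of -2.06, -2.18, -2.31 and -1.03.

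Of 10 alpha-expansin and EXORDIUM genes, which loosen the wall or respond to brassinosteroid, 9 were lower and 1 was called. Of all 19388 genes tested, 10338 were lower and 0.366% were called. EXPA4 was at 7.69, 12.9, 8.29 and 7.48 CPM in the relatives and at 15.6 to 47.4 in the DMSO plants. It fell by 1.71 (SE 0.30, adjusted p = 0.0041), a call lost when relative replicate 4 was left out (adjusted p = 0.0184). The median of the list was -0.79, but it was 0.45 against line C23 alone, -1.45 against C13 and -0.75 against C4. In relatives 1 to 4 taken singly, the median ratio to the DMSO plants was -0.95, -0.02, -0.50 and -1.10, so replicate 2 showed almost no shift. LAX3, a carrier that brings auxin into cells, was at 2.66 to 3.58 CPM against 4.51 to 9.62 and fell by 1.21, a call that was also lost without that plant (adjusted p = 0.0204).

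**Figure D3:**
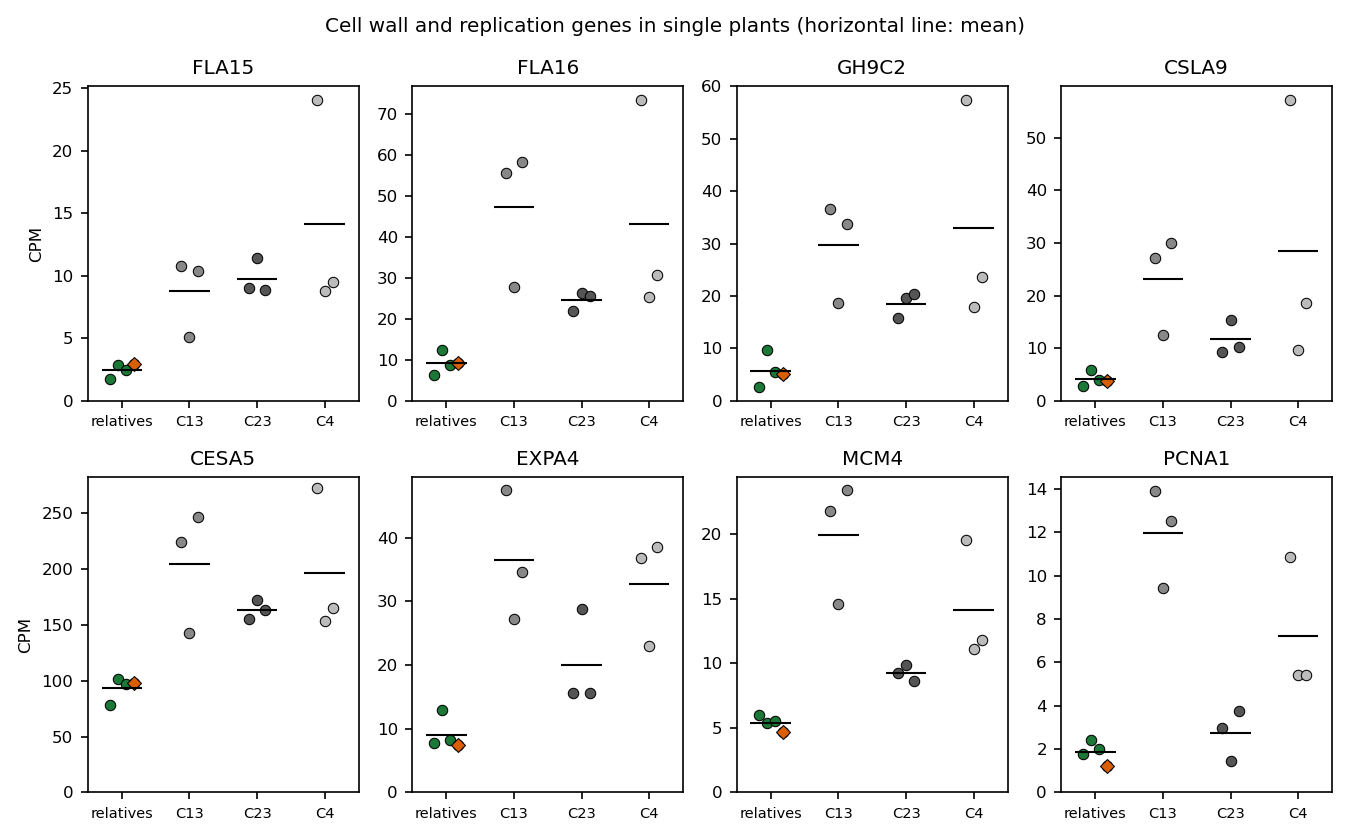
Level of 6 cell wall genes and of the replication genes MCM4 and PCNA1 in CPM (vertical axis, starting at 0) in single plants, with the relatives in green, relative replicate 4 as an orange diamond and the DMSO plants in grey by M1 line. The horizontal line is the mean of the plants. The relatives lie below every DMSO plant in all panels except PCNA1, in which they overlap with line C23.

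No gene of the list for cell cycle and DNA replication was called, though 31 of its 32 members were lower in the relatives. The median log2 fold change was -0.96, or -0.89 without relative replicate 4, against -0.022 over all genes tested. MCM4, a subunit of the replicative helicase, was at 4.65 to 6.01 CPM in the relatives and 8.67 to 23.5 in the DMSO plants, with a log2 difference of -1.42 (adjusted p = 0.0213). PCNA1, the sliding clamp, was at 1.22 to 2.42 CPM against 1.45 to 13.9 (log2 difference -1.96, adjusted p = 0.0478). The median of the list was -1.46 against line C13 alone, -0.94 against C4 and -0.09 against C23.

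The DNA damage response list is of interest because etoposide breaks DNA in the treated generation. Of its 20 genes 3 were higher, 17 were lower and none was called, with a median of -0.33. Of all 19388 genes tested, 10338 were lower, and their median was -0.022. The lowest adjusted p-values were those of TSO2, ATR and RNR1, at 0.0351, 0.0363 and 0.0445. TSO2 and RNR1, ribonucleotide reductase genes also used in replication, had log2 differences of -1.36 and -1.16, and the checkpoint kinase gene ATR had one of -0.59. PARP1, PARP2, BRCA1 and SMR7 had overlapping values and adjusted p-values of 0.44 to 0.96.

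HCD1, annotated as 3-hydroxyacyl-CoA dehydratase 1, was lower in every relative. It was at 12.4, 12.1, 11.7 and 11.4 CPM in the relatives and at 55.4, 45.4, 49.6, 34.4, 29.5, 49.8, 42.5, 27.3 and 40.6 in the DMSO plants. The gene fell by 1.81 (SE 0.18, adjusted p = 6.15e-05) and was called in each of the 13 analyses without 1 plant. AT5G41900, an alpha/beta hydrolase, was at 2.29, 4.02, 2.14 and 2.27 CPM against 8.41 to 19.2 and fell by 2.42 (SE 0.25, adjusted p = 8.49e-05). CYP77A4, a cytochrome P450 of fatty acid oxidation, was at 0.69 to 1.48 CPM against 2.35 to 5.22 and fell by 1.76.

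NRT1.1, the nitrate transporter and sensor, was at 19.8, 31.9, 33 and 20.7 CPM in the relatives and at 49.2 to 103 in the DMSO plants. It fell by 1.41 (SE 0.21, adjusted p = 0.00144). MYB4, a repressor of phenylpropanoid genes, was at 5.81 to 8.89 CPM against 12.8 to 25 and fell by 1.42. The transcription factor gene GATA7 was at 0.88 to 1.09 CPM against 2.05 to 5.78 and fell by 1.97. ProT3, a proline transporter, had the lowest fold change of all calls, at 0.44 to 1.75 CPM against 3.56 to 12.8, and fell by 2.58, though its adjusted p was 0.0181 without relative replicate 4. ASG8, AT5G47380, AT1G33260 and AT2G46380, of which AT1G33260 encodes a protein kinase, fell by 1.59, 1.71, 1.88 and 1.05.

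Relative replicate 4 carried a response of its own. Genes induced within minutes of cold or touch had a median log2 ratio to the DMSO plants of 3.98 in replicate 4, and of 0.35, 0.30 and 0.09 in relatives 1 to 3. Their summed level was 4915 CPM in replicate 4, 898 to 1600 in the other relatives and 308 to 1206 in the DMSO plants, and 15 of the 17 genes were highest of all 13 plants in replicate 4. The fitted median over the 4 relatives was 1.89, with 16 of 17 genes higher and none called, and it was 0.11 without replicate 4. ERF11, an ethylene response factor that represses transcription, was at 10, 6.02, 6.73 and 222 CPM in relatives 1 to 4 and at 1.63 to 9.44 in the DMSO plants. ZAT12, a zinc finger protein of stress responses, was at 9.39, 6.29, 8.10 and 182 CPM. CBF1, which starts the cold response, was at 1.52, 1.24, 1.55 and 31.1 CPM. TCH4, a wall-modifying enzyme, did not follow this pattern: at 252, 561, 240 and 673 CPM it was above the DMSO range of 0.93 to 196 in every relative (adjusted p = 0.0506).

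The chitin and pattern-triggered list went from a median of 0.35 to -0.02 without replicate 4, the WRKY list from 0.68 to 0.21 and the jasmonate list from 0.24 to -0.11, and none of their members was called. Of the 39 genes called higher, 6 were more than 2 times as high in replicate 4 as in any other relative. The largest fold change of all, that of the uncharacterized gene AT4G27652, came from it, with 9.50, 6.00, 6.74 and 338 CPM in relatives 1 to 4 and 3.15 to 9.43 in the DMSO plants. The fold change was 3.99 with replicate 4 and 0.39 without it. AT1G18740, with 314 CPM in replicate 4, went from 1.89 to 0.92. For AT3G23170 the values were 38.6, 35, 26.8 and 149 CPM, so that relatives 1 to 3 also exceeded the DMSO range of 4.65 to 24.4, and its log2 fold change was 1.25, not called, without replicate 4. CYP707A1, an abscisic acid hydroxylase, was at 10.1, 11.6, 9.80 and 36.1 CPM against 1.54 to 5.81 and went from 2.13 to 1.44, again not called.

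**Figure D4:**
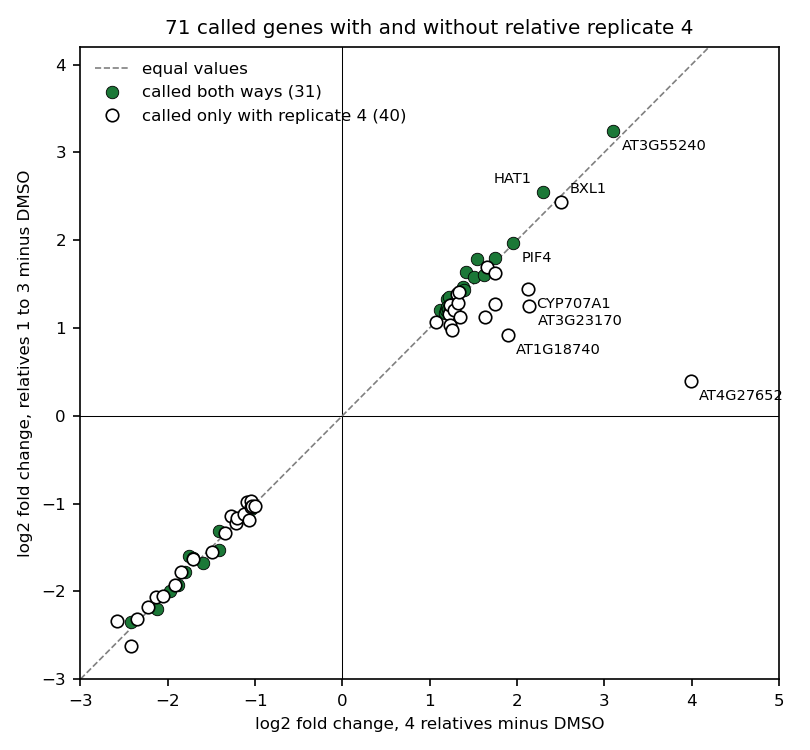
Log2 fold change of the 71 called genes from all 4 relatives (horizontal axis) and from relatives 1 to 3 (vertical axis), both minus the DMSO plants, with the line of equal values dashed. Filled points are the 31 genes called both ways and open points the 40 called only with replicate 4. Most genes lie near the line, and AT4G27652 falls from 3.99 to 0.39.

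**Figure D5:**
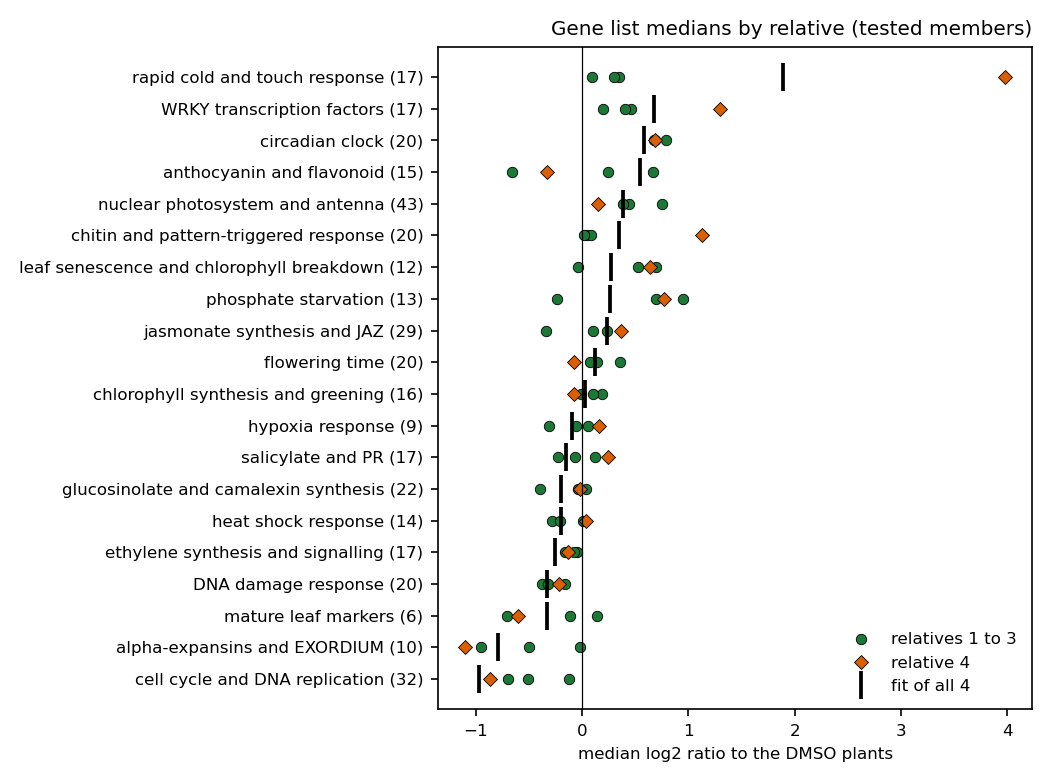
Median log2 ratio to the DMSO plants (horizontal axis) of each gene list with 6 or more tested genes, in relatives 1 to 3 (green circles) and relative replicate 4 (orange diamonds), with the median of the fit over all 4 as a bar. The ratio of a single plant uses CPM + 0.5, which draws low genes towards 0. The clock list is nearly equal in the 4 plants, at 0.68 to 0.79, and the cold and touch list is at 3.98 in replicate 4 alone.

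The ethylene-linked genes that the study follows in the virescent plants were low or set by 1 plant. ACS5, an enzyme of ethylene synthesis, had 0 counts in each of the 13 plants, and a count of 0 allows up to 3 counts in a library. ERF022 (AT1G33760) was at 6.28, 7.16, 3.13 and 90.5 CPM in the relatives and at 0.05 to 6.14 in the DMSO plants, with a log2 difference of 3.77 (adjusted p = 0.024) that was 1.498 (adjusted p = 0.39) without replicate 4. ERF014 (AT1G44830) had 0 counts in the 4 relatives and 31 over the 9 DMSO plants, and was not called. Of 5 genes with known epialleles, QQS, ROS1 (DML1 in RefSeq) and IBM1 were tested and had log2 differences of 0.28, 0.10 and -0.17 with overlapping values. SDC had 9 counts over the relatives and 14 over the DMSO plants, and FWA had 1 and 0.

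The remaining pathway lists held no called gene, and their medians ran from -0.25 for ethylene synthesis and signalling to 0.54 for anthocyanin and flavonoid genes. Of the 15 anthocyanin and flavonoid genes tested, 8 were higher and 7 lower. Their median ratio to the DMSO plants differed in sign between relatives 1 to 4, at 0.67, -0.66, 0.25 and -0.33. Phosphate starvation genes differed most by control line, with a median of 2.63 against C13 alone, -0.53 against C23 and 0.37 against C4, and of 0.26 against all 9 plants.

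The called genes lay on all 5 chromosomes. Chromosomes 1 to 5 held 11, 10, 10, 4 and 4 of the higher and 7, 5, 2, 6 and 12 of the lower genes. The genes tested on them numbered 5105, 2923, 3830, 2945 and 4496. Medians over 21 neighbouring genes stayed within 0.5 of zero on the log2 scale in 99.97% of 19199 windows, and no window held more than 2 called genes. The lowest median was -0.53, in overlapping windows on chromosome 4 from AT4G22990 to AT4G23270, and the highest 0.44, on chromosome 2 from AT2G07678 to AT2G07727. The chromosome 4 shift was not shared by all relatives. Taken singly, relatives 1 to 4 had medians there of -0.47 to -0.38, -0.17 to -0.15, -0.44 to -0.35 and 0.03. In none of the 19199 windows did the median over neighbouring genes rise or fall by a log2 difference of 1.

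In virescent plants of the same M1 line, which come from other M2 families and entered the same fit, some of the higher genes were also high and others were not. The 71 genes had been chosen on the relatives and the DMSO plants, which by itself favours virescent plants on the DMSO side of the relatives. The same counts over all genes tested were not made, so the counts and levels below are given as a description only. Of the 39 higher genes, 9 had all 6 virescent plants above every DMSO plant, and 20 had all 6 below every relative. Of the 32 lower genes, 3 had all 6 below every DMSO plant, and 26 had all 6 above every relative. PIF4 was at 67.7 to 156 CPM, PRR7 at 43.2 to 96.8, LUX at 101 to 144 and GRP7 at 5828 to 9086. HAT1 was at 5.12 to 21.3 CPM, BXL1 at 6.48 to 38.6 and the lower gene HCD1 at 36.9 to 58.5, so that the 6 virescent plants lay outside the range of the relatives in these 3 genes.

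Relatives without phenotype of the 2 dwarf lines also descend from etoposide-treated seed, and the virescent line relatives were compared with these 8 plants in a fit of all 53 libraries. Of 20398 genes 135 were called (0.662%), 97 higher and 38 lower in the virescent line relatives. Of the 71 genes 14 were called here too, in the same direction. The 71 had been chosen on the same 4 relatives that form one arm of this comparison, so this overlap is no independent support. HAT1 was higher by 3.31 (adjusted p = 3.29e-07), and HCD1, GATA7, MYB4 and NRT1.1 were lower, at -2.12, -2.44, -1.52 and -1.82, all called. PIF4, LUX, GRP7 and PRR7 were not called, with differences of 0.51, 0.65, 0.59 and 0.96 at adjusted p-values of 0.419, 0.0857, 0.0772 and 0.0453. In the same fit and against the same DMSO plants, PIF4 had log2 fold changes of 1.94 in the virescent line relatives, 1.60 in those of the BR-like dwarf line and 1.25 in those of the short-internode dwarf line. For HAT1 the values were 2.29, -1.21 and -0.83. Against DMSO this fit called 27 genes in the virescent line relatives, 0 in the BR-like dwarf relatives and 548 in the short-internode dwarf relatives, which share the control plants.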

How the data were processed

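Poly(A) RNA of single leaf samples was sequenced from directional libraries. The authors trimmed reads with Trim Galore and made estimated counts per gene with Salmon against Araport11 transcripts, with versions not given in the sources used here. The deposited counts are not normalized, and 9.27% of values were not whole and were rounded. The authors' deposited tables of their DESeq2 comparisons (means, fold changes, Wald statistics, p-values) were not used. The labels were kept where the study differs from them: its methods give the DMSO plants as M3, its supplementary table as M2 or M3 by plant, and that table lists virescent replicate 1 (13B_25_23) as a relative without phenotype. Without that plant in the fit 57 genes were called.

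Genes that reached 10 normalized counts in 4 or more of 19 libraries (4 relatives, 9 DMSO, 6 virescent plants) were tested with edgeR 4.0.16 (quasi-likelihood, TMM scaling, Benjamini-Hochberg adjustment over all genes) in R 4.3.3. The contrast corresponds to the treatment term of the study's DESeq2 model, but that model was fitted after the authors removed libraries they took for outliers, and no library was removed here. CPM are TMM-scaled, and compare plants, not genes. The SE is the fold change over the root of the F statistic and restates the test. DESeq2 1.42.0 and limma 3.58.1 were alternatives. RefSeq TAIR10.1 paired 27391 of 27501 identifiers. Plots used matplotlib 3.10.9.

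Members, lists and tests were chosen with earlier results of these data known. Named genes are up to 12 in each direction with the largest fold change among those called with and without relative replicate 4 and not overlapping, called list members, ERF022, ERF014, ACS5, GUN4 and genes with known epialleles. Other genes were named after their values were seen. The comparison with relatives of the dwarf lines, the per-gene values in virescent plants and the fit without 3 plants were added after seeing the data.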

Additional observations from a re-analysis of the deposited data

Results flagged for a closer look

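Single plants were examined in 98 groups of values (total counts, summed CPM of the gene lists and CPM of the named called genes, in relatives and in DMSO plants), and 12 held a plant far from the others by Dixon's criterion, which chance gives in about 1 group of 20. Relative replicate 4 was the plant in 3 of them, with 3943 CPM for the chitin and pattern-triggered list (other relatives 1194 to 1289), 3239 for the WRKY list (1055 to 1400) and 1310 for the ethylene list (731 to 811). DMSO replicate 2 stood apart in the ethylene list, at 1501 CPM (others 732 to 862), and in the salicylate list, at 1251 CPM (others 285 to 661). DMSO replicate 5 had 116654254 total counts (others 40099331 to 57466351) and 9.07 CPM of AT1G33260 (others 3.20 to 5.44). Relative replicate 2 was highest in the expansin and EXORDIUM list at 356.5 CPM (others 187 to 213), in EXPA4 at 12.9 CPM (7.48 to 8.29) and in AT5G41900 at 4.02 CPM (2.14 to 2.29). DMSO replicate 8 had 26.1 CPM of PIF4 (others 12.4 to 18.5) and DMSO replicate 7 had 24.04 CPM of FLA15 (others 5.13 to 11.4).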

How the results depend on the processing

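The count of 71 calls was 314 with DESeq2 (114 higher, 200 lower), 32 with only the 13 plants compared in the fit, 27 with all 53 libraries in the fit, 0 in limma-voom with M1 line as a random block (within-line correlation 0.35, 1000 genes at an unadjusted p below 0.05), 281 at an adjusted p below 0.05 and 180 at an adjusted p below 0.01 without a fold threshold. It was 158, 111 and 118 without DMSO lines C13, C23 and C4, and 1111, 466 and 39 against each of these alone. Leaving out 1 plant gave 21 to 82. Without relative replicate 4 and DMSO replicate 2 it was 43, and without these and DMSO replicate 5, chosen after seeing the data, it was 37. It stayed within 1.5 times under the other alternatives, of which limma-voom gave 76 (62 higher, 14 lower). All 71 genes kept their direction in each of these analyses. For the settings not explained by fewer plants or another threshold, the cause was not tested. The uncalled QQS and DML1 changed sign, to -0.05 against line C23 alone and to -0.073 against C4 alone.

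Replicate numbers did not pair the plants. Deviations of same-numbered plants correlated at -0.0699, 0.0179, -0.0658 and 0.0618, and no relative correlated best with the DMSO plant of its own number. With the replicate block 85 genes were called, 30 of them among the 71. Depth limits genes with few counts, such as SDC, FWA and ERF014.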
